A study of Mus musculus with 6 samples.

Results

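The small heat shock proteins of mouse heart were followed here through 7 genes, Hspb1, Hspb2, Hspb3, Hspb6, Hspb7, Hspb8 and Cryab, chosen by gene symbol from the 22556 genes of the expression table. All 7 symbols were present and all 7 reached the mean level required for testing. Heart tissue of wild-type (WT) mice was profiled by RNA sequencing after subcutaneous infusion of angiotensin II (Ang II), the peptide hormone that constricts vessels and raises blood pressure, from implanted osmotic pumps at 1000 ng/kg/min. The 3 groups were infused for 0 days (the controls), 7 days and 28 days, with 2 libraries each, 6 in all. No control was taken at 7 or 28 days, so infusion cannot be told apart from elapsed time. The labels used here give no strain, sex or age, do not state what the controls received and do not say whether each library came from a separate mouse, so the p-values measure only the spread between these libraries, which may be technical. Each gene had 1 value per library in RPKM, reads scaled to transcript length and to the mapped reads of the library, so levels of different genes can be compared per unit of length.

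Small heat shock proteins share an alpha-crystallin domain, and some of them assemble into large oligomers. The family holds partly unfolded proteins without using ATP, until larger, ATP-driven chaperones refold them or they are degraded. Heart and skeletal muscle hold many family members, which bind desmin, filamins, titin and actin and keep the contractile apparatus in order under mechanical load. Cryab encodes alpha-B crystallin, a major chaperone of desmin, and mutations in human CRYAB cause a desmin-related myopathy. Heat shock factors drive part of the family through heat shock elements, repeated short sites in the promoter.

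With control replicate 1 set to 1, the steps between low RPKM values put the depth of control replicate 2 at 1.05. At 7 days the relative depth was 1.16 for replicate 1 and 1.14 for replicate 2, and at 28 days it was 0.983 for replicate 1 and 0.889 for replicate 2. The absolute depth is unknown. A mean of at least 1 RPKM was reached by 11096 genes, which were tested with limma on log2(RPKM + 0.5). The 11 cardiomyocyte markers checked were all tested, and Tnnt2, the cardiac troponin T gene, lay between 5844 and 7292 RPKM across the 6 libraries. The summed level of 4 atrial markers was 9.43 times as high in control replicate 2 as in control replicate 1, whereas the small heat shock genes differed between the same libraries by 1.02-fold (Hspb7 and Hspb3) to 1.16-fold (Hspb2).

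Cryab had the highest level of the 7 in each library. It was listed at 647 and 735 RPKM at 0 days, 1029 and 988 RPKM at 7 days, and 1126 and 1287 RPKM at 28 days. The 3 groups did not overlap, and Cryab ranked 59 among all genes by its control mean.

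Hspb6 and Hspb7 formed the next tier. Hspb6 encodes a small heat shock protein that protein kinase A phosphorylates, and its level was 365 and 352 RPKM at 0 days, 711 and 688 RPKM at 7 days, and 759 and 751 RPKM at 28 days. Hspb7, the cardiovascular small heat shock protein, had 359 and 364 RPKM at 0 days, 658 and 731 RPKM at 7 days, and 999.6 and 895 RPKM at 28 days. The levels of these genes overlapped at 0 and at 7 days, and at 28 days both Hspb7 values lay above both Hspb6 values. Their control ranks were 115 for Hspb7 and 116 for Hspb6.

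Hspb8, whose protein works with the co-chaperone BAG3 in the disposal of damaged filamin, had 215 and 228 RPKM at 0 days, 287 and 277 RPKM at 7 days, and 298 and 267 RPKM at 28 days. Both infused groups lay above the controls and overlapped each other. Hspb2, first described as a binding protein of the myotonic dystrophy kinase, had 75.5 and 65.1 RPKM at 0 days, 76.2 and 65.8 RPKM at 7 days, and 66.9 and 69.6 RPKM at 28 days, so that all 3 groups overlapped.

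Hspb1, the mouse gene of the protein called HSP25 in rodents, which binds actin and is phosphorylated downstream of the p38 kinase, had 46.4 and 47.9 RPKM at 0 days, 85.4 and 91.1 RPKM at 7 days, and 133 and 125 RPKM at 28 days. It lay below Hspb2 in both controls and above it in each of the 4 libraries from infused mice. Hspb3, a muscle member that pairs with the product of Hspb2, was the lowest, with 11.1 and 11.3 RPKM at 0 days, 14.7 and 12.3 RPKM at 7 days, and 18.2 and 18.8 RPKM at 28 days. Neither Hspb1 nor Hspb3 overlapped between groups. From the highest to the lowest, the order at 0 days was Cryab, Hspb7 with Hspb6, Hspb8, Hspb2, Hspb1 and Hspb3, and the only neighbours in that order with overlapping values were Hspb7 and Hspb6.

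**Figure D1:**
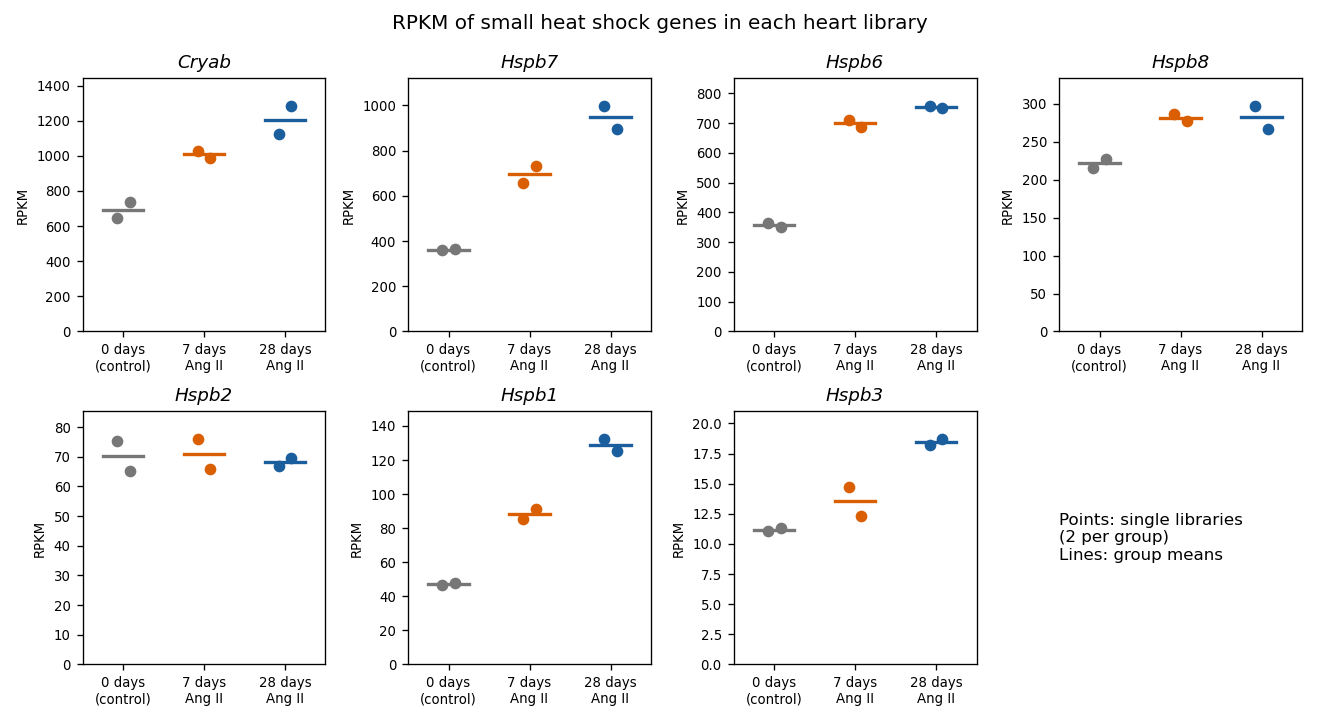
RPKM of each small heat shock gene (vertical axis, from 0, its own scale in each panel) at 0, 7 and 28 days of Ang II; points are single libraries and lines group means of 2 libraries. Cryab, Hspb7, Hspb6, Hspb1 and Hspb3 step up from group to group without overlap, Hspb8 is higher in both infused groups, and Hspb2 overlaps in all 3.

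The stretches before the starts of Hspb1, Hspb6, Hspb7 and Hspb3, the genes with a sequence entry that passed at 28 days, Hspb3 at that time alone, are shown to compare their heat shock elements. They are RefSeq sequences on GRCm38.p6, read 5′ to 3′ on the strand of the gene, and 5 of the 7 genes had an entry; Cryab and Hspb2 had none. Capitals mark matches to 2 adjoining units of the heat shock element, GAANNTTC, and, at the end of the Hspb3 stretch, an MEF2 site. The positions are chr5:135887669-135887918, plus strand, for Hspb1, chr7:30553063-30553267, plus strand, for Hspb6, chr4:141420529-141420778, plus strand, for Hspb7, and chr13:113663677-113663926, minus strand, for Hspb3. The stretches hold no annotated exon, and the one of Hspb6 was shortened for that reason.
Hspb1: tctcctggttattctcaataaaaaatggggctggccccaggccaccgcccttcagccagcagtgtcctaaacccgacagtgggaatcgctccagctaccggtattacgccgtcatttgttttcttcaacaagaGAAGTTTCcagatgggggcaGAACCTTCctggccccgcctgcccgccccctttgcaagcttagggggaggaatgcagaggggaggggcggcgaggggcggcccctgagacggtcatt
Hspb6: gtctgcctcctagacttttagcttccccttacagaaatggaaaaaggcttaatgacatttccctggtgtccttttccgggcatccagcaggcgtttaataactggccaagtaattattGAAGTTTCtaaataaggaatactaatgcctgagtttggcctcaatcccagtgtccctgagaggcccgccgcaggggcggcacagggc
Hspb7: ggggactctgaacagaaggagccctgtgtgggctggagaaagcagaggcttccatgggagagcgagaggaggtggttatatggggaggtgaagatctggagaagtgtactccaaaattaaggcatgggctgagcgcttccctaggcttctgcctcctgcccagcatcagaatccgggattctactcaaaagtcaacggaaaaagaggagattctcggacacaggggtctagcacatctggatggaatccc
Hspb3: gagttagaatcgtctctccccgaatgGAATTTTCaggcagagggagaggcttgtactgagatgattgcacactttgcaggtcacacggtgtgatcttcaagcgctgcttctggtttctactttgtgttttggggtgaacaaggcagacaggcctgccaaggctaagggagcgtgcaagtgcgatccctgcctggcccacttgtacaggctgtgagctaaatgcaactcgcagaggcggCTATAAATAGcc

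In the 250 bases before the start, Hspb1 held GAANNTTC at 2 places, beginning 117 and 97 bases before the start. Hspb6 held it once, 120 bases before an annotated start and with the same 8 letters as the first match of Hspb1, GAAGTTTC, and Hspb3 held it once, 224 bases before its start. Hspb7 and Hspb8 held none. Of 32817 promoter windows of this length in the table, 6.69% held GAANNTTC on either strand, 7.16% the reverse arrangement TTCNNGAA and 0.466% a run of 3 units. The windows of the 5 genes held no reverse arrangement and no run of 3 units. A TATA box, TATAAA, stood 29 bases before the start of Hspb6 and 11 before that of Hspb3, against 12.4% of all windows. The MEF2 site of Hspb3, which overlaps its TATA box, was found in 2.92% of windows, and the CArG box, found in 1.47%, in no window of these genes. A match is a run of letters, not a measured binding site, and a window without one shows only that these letters are not in it.

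The first comparison set the 7 day libraries against the controls. Of the 7 genes, 4 rose, 0 fell and 3 did not pass (limma adjusted p under 0.05), where 13.2% of all tested genes were called higher and 2.27% lower. Hspb6 rose the most, to 699.8 ± 16.5 RPKM at 7 days, against 359 ± 9.33 RPKM in the controls (mean ± SD, n = 2 each; log2 change 0.96, SE 0.09; limma adjusted p = 0.00165). Hspb7 rose to 694 ± 51.4 RPKM at 7 days, against 362 ± 4.07 RPKM in the controls, by 0.94 on the log2 scale (limma adjusted p = 0.00293). Hspb1 rose to 88.2 ± 4.06 RPKM at 7 days, against 47.2 ± 1.08 RPKM in the controls, by 0.90 (limma adjusted p = 0.00229). These 3 changes were of nearly equal size, from 1.86-fold to 1.95-fold.

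Cryab rose less, to 1009 ± 28.5 RPKM at 7 days, against 691 ± 61.8 RPKM in the controls (log2 change 0.55, SE 0.12; limma adjusted p = 0.0244). Its call rested on each of the 4 libraries compared, since it was lost without control replicate 1 (limma adjusted p = 0.234), control replicate 2 (0.103), 7 day replicate 1 (0.0641) or 7 day replicate 2 (0.0672), and also after median ratio scaling (0.068). Hspb8 had a log2 change of 0.35 (95% interval 0.11 to 0.59) that missed the threshold (limma adjusted p = 0.06). With the 28 day libraries out of the fit it passed (0.0462), as it did with either of them out (0.0465 and 0.0467). Hspb3 had a log2 change of 0.26 (95% interval -0.01 to 0.53; limma adjusted p = 0.177). Hspb2 had a log2 change of 0.01 (95% interval -0.27 to 0.29; limma adjusted p = 0.947).

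The 7 day groups lay wholly above the controls for 6 of the 7 genes and wholly below for 0, where 48.6% of all tested genes lay above and 16.1% below. At an unadjusted p under 0.05, 5 of the 7 were higher, against 26.5% of all tested genes. The median log2 change was 0.55 over the 7 genes and 0.14 over all tested genes. That general shift was -0.02 after median ratio scaling. Relative to the unscaled median of 0.14, the unscaled log2 changes were 0.83 for Hspb6, 0.80 for Hspb7, 0.76 for Hspb1, 0.41 for Cryab, 0.21 for Hspb8, 0.12 for Hspb3 and -0.12 for Hspb2. The study's own criterion at 7 days was an unadjusted p under 0.05 with a fold change over 2. It was applied here to the p and fold from limma, not to the study's own values. None of the 7 genes met it, where 3.48% of tested genes did upward, and Hspb6 came nearest at 1.95-fold.

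The second comparison asked the same after 28 days. Of the 7 genes, 5 rose, 0 fell and 2 did not pass, where 2.87% of all tested genes were called higher and 1.54% lower. Hspb1 now had the largest change, with 129 ± 5.37 RPKM at 28 days, against 47.2 ± 1.08 RPKM in the controls (n = 2 each; log2 change 1.44, SE 0.09; limma adjusted p = 0.00264). Hspb7 followed, with 947 ± 74.1 RPKM at 28 days, against 362 ± 4.07 RPKM in the controls (log2 change 1.39, SE 0.11; limma adjusted p = 0.00305). Hspb1 and Hspb7 stood at places 66 and 75 among the 11096 log2 changes, and Hspb6, with 755 ± 6.18 RPKM at 28 days and a log2 change of 1.07, at place 125 (limma adjusted p = 0.00368). The call of Hspb6 was lost without control replicate 1 (limma adjusted p = 0.0661).

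Cryab rose to 1206 ± 114 RPKM at 28 days, against 691 ± 61.8 RPKM in the controls, by 0.80 on the log2 scale (limma adjusted p = 0.0184). Hspb3 rose to 18.5 ± 0.397 RPKM at 28 days, against 11.2 ± 0.188 RPKM in the controls, by 0.70 (limma adjusted p = 0.0249). Both calls were fragile. Cryab lost its call without control replicate 1 (limma adjusted p = 0.218), control replicate 2 (0.0855) or 28 day replicate 2 (0.0548), and Hspb3 lost its call without either control library (0.211 and 0.131) or either 28 day library (0.0502 and 0.0588). Hspb8 had the same log2 change as at 7 days, 0.35 (95% interval 0.11 to 0.59), and did not pass (limma adjusted p = 0.106). Hspb2 had a log2 change of -0.04 (95% interval -0.32 to 0.24; limma adjusted p = 0.88).

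The 28 day libraries lay wholly above the controls for the same number of genes, 6 of 7, and wholly below for 0, against 28.8% above and 25.8% below over all tested genes. At an unadjusted p under 0.05, 6 of the 7 were higher, against 12.8% of all tested genes. The median log2 change was 0.80 over the 7 genes and 0.01 over all tested genes. The study's criterion for this time was an unadjusted p under 0.05 with a fold change over 1.5. Applied to the limma values, it called 5 of the 7 genes higher, where 4.35% of tested genes were.

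**Figure D2:**
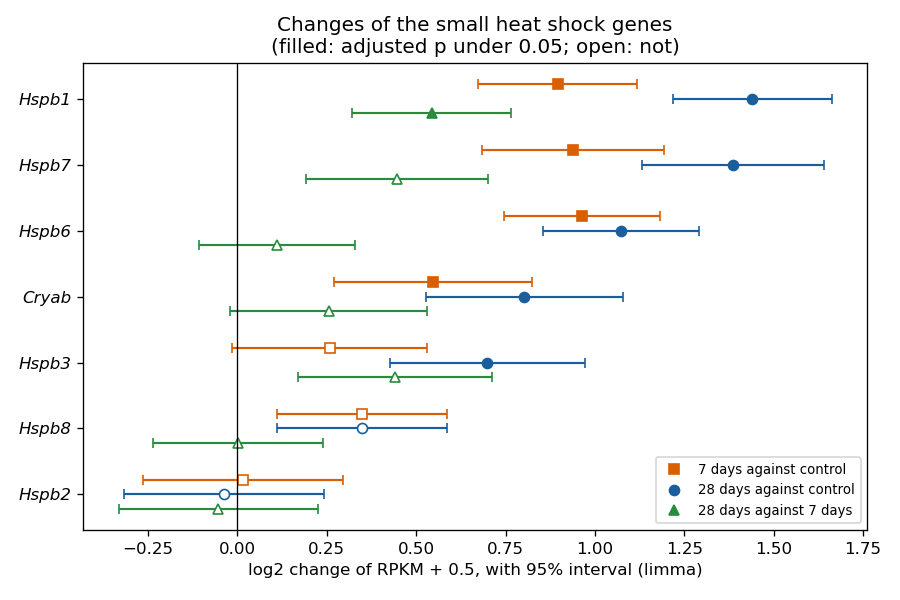
Log2 change of each small heat shock gene (horizontal axis, log2 of RPKM + 0.5) with its 95% interval from limma, at 7 days against control (squares), 28 days against control (circles) and 28 days against 7 days (triangles); filled symbols passed at an adjusted p under 0.05. Hspb1, Hspb7 and Hspb6 lie together near 0.9 to 1.0 at 7 days and apart at 28 days, and Hspb2 lies at 0.01 and -0.04.

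The comparisons with control share the 2 control libraries, so the infusion times were also compared directly. Hspb1 was the single gene of the 7 that passed between 28 and 7 days, where 0.406% of all tested genes were called higher and 4.26% lower. It had 129 ± 5.37 RPKM at 28 days, against 88.2 ± 4.06 RPKM at 7 days (n = 2 each; log2 change 0.54, SE 0.09; limma adjusted p = 0.027). Leaving out either control library, either 7 day library or 28 day replicate 1 ended the call, with adjusted p from 0.0785 to 0.103, and a replicate block gave 0.0515. Hspb7 and Hspb3 had changes of similar size, 0.45 and 0.44 on the log2 scale (95% intervals 0.19 to 0.70 and 0.17 to 0.71), that did not pass (limma adjusted p = 0.0681 and 0.0838). Both passed after median ratio scaling (0.0463 and 0.0466).

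Cryab had a log2 change of 0.25 between the infusion times (95% interval -0.02 to 0.53; limma adjusted p = 0.255), and Hspb6 one of 0.11 (95% interval -0.11 to 0.33; limma adjusted p = 0.526). Hspb8, at 0.00 (95% interval -0.24 to 0.24), and Hspb2, at -0.05 (95% interval -0.33 to 0.23), did not pass either. The 28 day libraries lay wholly above the 7 day libraries for 5 of the 7 genes, all but Hspb2 and Hspb8, and wholly below for 0, against 9.12% above and 41.2% below over all tested genes. The median of all genes lay at -0.12 in this comparison and the median of the 7 genes at 0.25.

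Summed over the 7 genes, the level was 1719 and 1804 RPKM at 0 days, 2861 and 2853 RPKM at 7 days, and 3400.1 and 3412 RPKM at 28 days. The sums of the 3 groups did not overlap, and the largest gap between replicates was that of the controls. As a share of the RPKM of all genes the picture at 7 days was different, because the total over all genes was 541588 and 435749 RPKM at 7 days, against 333258 and 347267 RPKM in the controls. The 7 genes made up 0.516% and 0.519% of all RPKM at 0 days, 0.528% and 0.655% at 7 days, and 0.942% and 0.853% at 28 days. On that scale 7 day replicate 1 was close to the controls, and both 28 day libraries lay well above the other 4. Cryab, Hspb6 and Hspb7 made up most of each sum. The share of Hspb7 was 20.5% ± 0.465 at 0 days, 24.3% ± 1.85 at 7 days and 27.8% ± 2.25 at 28 days (SD, n = 2 each), and that of Hspb1 was 2.68% ± 0.0292, 3.09% ± 0.148 and 3.78% ± 0.167 at the same times. The share of Hspb8 ran the other way, with 12.6% ± 0.0968 at 0 days, 9.87% ± 0.228 at 7 days and 8.29% ± 0.665 at 28 days, although its own RPKM was higher in each 7 and 28 day library than in the controls. The share of Cryab overlapped between the groups, with 37.7% and 40.7% at 0 days, 36.0% and 34.6% at 7 days, and 33.1% and 37.7% at 28 days.

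**Figure D3:**
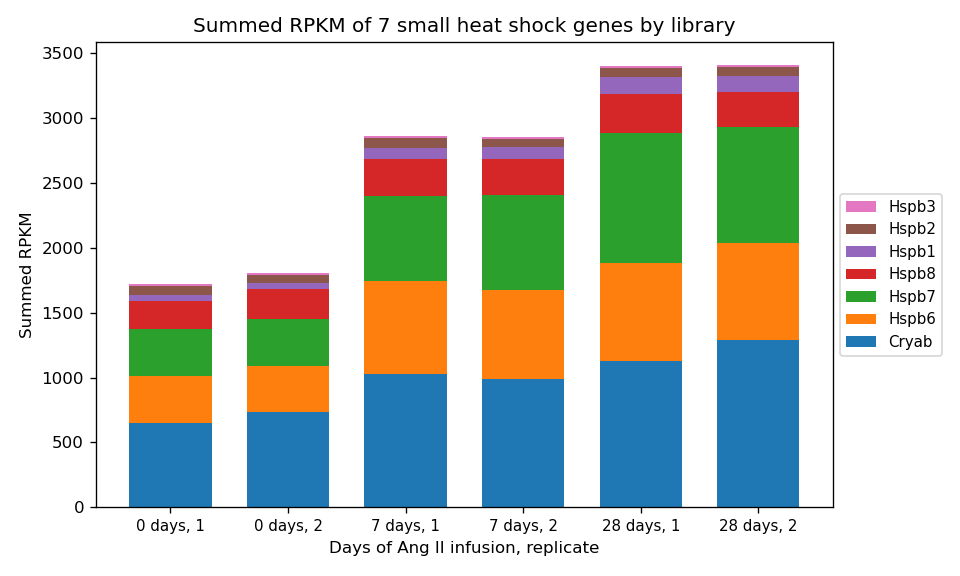
Summed RPKM of the 7 small heat shock genes (vertical axis, from 0) in each library, with each gene's part stacked; bars run from 0 to 28 days, 2 replicates each. The sum is higher in each later group, from 1719 to 3412 RPKM, and the bands of Hspb6 and Hspb7 widen while that of Hspb2 does not. As a share of all RPKM, however, 7 day replicate 1 (0.528%) lies close to the controls (0.516% and 0.519%).

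Hspb2 and Cryab lie side by side on chromosome 9, on opposite strands, and their values lay further apart in each later group. The ratio of Cryab to Hspb2 RPKM was 8.58 and 11.3 at 0 days, 13.5 and 15.0 at 7 days, and 16.8 and 18.5 at 28 days, with no overlap between groups. The ratio is given as a description, with no test. In the GENCODE M21 annotation on GRCm38, 252 of the 834 exon bases of Hspb2 are also exon bases of a Cryab transcript. The labels do not state whether the libraries kept the strand, so reads from those bases cannot be assigned with certainty, and the level of Hspb2 is uncertain to that extent. Hspb6 shares 122 of its 2299 exon bases with Proser3 on the other strand.

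Larger chaperones take over the clients that small heat shock proteins hold. Of 38 listed large heat shock chaperones and co-chaperones, all tested, 2 rose and 36 did not pass at 7 days, and 3 rose and 35 did not pass at 28 days, with median log2 changes of 0.17 and 0.11 beside 0.14 and 0.01 over all tested genes. Over all tested genes 13.2% were called higher at 7 days and 2.87% at 28 days. Hspa1l, a member of the HSP70 family, rose at both times, to 4.08 ± 0.535 RPKM at 7 days and 5.26 ± 0.389 RPKM at 28 days, against 2.21 ± 0.235 RPKM in the controls (log2 changes 0.75 and 1.09; limma adjusted p = 0.0161 and 0.013). Hsph1, a nucleotide exchange factor of HSP70, rose by 0.64 at 7 days (limma adjusted p = 0.0335), and the J-domain co-chaperones Dnajb5 and Dnaja4 rose by 0.78 and 0.61 at 28 days (limma adjusted p = 0.0244 and 0.0236). Leaving out single libraries moved the number that rose to between 0 and 6 at 7 days and between 0 and 3 at 28 days; it was 0 at both times without control replicate 1, and 0 again without control replicate 2. Without 7 day replicate 2 it was 0 at 7 days and without 7 day replicate 1 it was 1, without either 28 day library it was 6 at 7 days, and without 28 day replicate 1 it was 1 at 28 days.

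A further list held 12 genes of BAG3 and the other BAG co-chaperones, BAG3 partners and chaperone-assisted autophagy. Of these, 1 rose at 7 days, Bag2 (log2 change 0.55, limma adjusted p = 0.0359). The call of Bag2 was lost when any 1 of the 4 libraries compared was left out and after median ratio scaling (limma adjusted p = 0.134). At 28 days 0 passed in limma. Over all tested genes 13.2% were called higher at 7 days and 2.87% at 28 days. At an unadjusted p under 0.05, 4 of the 12 were higher and 0 lower at 7 days, where 26.5% of all tested genes were higher. By the same measure 5 were higher and 1 lower at 28 days, where 12.8% of all tested genes were higher. The median log2 changes of the 12 were 0.23 and 0.28, beside 0.14 and 0.01 over all tested genes. Bag3 itself, the partner of Hspb8, was named after its values were seen. It had 61.2 and 70.1 RPKM at 7 days and 62.0 and 72.9 RPKM at 28 days, against 51.4 and 54.1 RPKM in the controls, and its log2 changes of 0.31 and 0.35 did not pass (limma adjusted p = 0.127 and 0.157). These changes were close in size to those of Hspb8. A list of 5 genes held heat shock factors and Hsbp1, the gene of a heat shock factor binding protein. Of these, 4 were tested and 0 passed at either time, against 0 at 7 days and 1 at 28 days at an unadjusted p under 0.05.

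Small heat shock proteins attend desmin, filamin, titin and the Z disc. Of 16 listed genes, 8 rose and 1 fell at 7 days, and 7 rose and 0 fell at 28 days, with median log2 changes of 0.45 and 0.39, where 13.2% and 2.87% of all tested genes were called higher. After median ratio scaling 4 rose at 7 days, and without a filter 0 rose at either time. Flnc, which encodes the muscle filamin that is a client of the Hspb8 complex, rose by 1.34 at 7 days and by 1.78 at 28 days (limma adjusted p = 0.0261 and 0.0246). Both calls ended when either control library or either 7 day library was left out (limma adjusted p from 0.0523 to 0.178). Myot, the Z-disc gene of myotilin, rose by 0.91 and 1.63 (limma adjusted p = 0.0117 and 0.00563). Neither call held when control replicate 1 was left out (0.0915 and 0.0554), and the 7 day call also ended without control replicate 2 (0.052) or 7 day replicate 2 (0.0806). Vim, the intermediate filament gene of vimentin and a fibroblast marker in heart, rose by 1.45 at 7 days (limma adjusted p = 0.00293).

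Des, the gene of desmin and of the filament that alpha-B crystallin binds, had 956 and 1023 RPKM at 28 days, against 525 and 537 RPKM in the controls, and rose by 0.90 on the log2 scale (limma adjusted p = 0.00757). It had risen as much at 7 days, with 945 and 996 RPKM (log2 change 0.87; limma adjusted p = 0.00281). Lmna, the gene of lamins A and C, rose by 0.94 at 28 days (limma adjusted p = 0.0115). Leaving out either control library ended both 28 day calls (limma adjusted p from 0.0529 to 0.119). Tcap, the titin cap gene, fell at 7 days, to 688 and 643 RPKM, against 1430 and 1442 RPKM in the controls (log2 change -1.11; limma adjusted p = 0.00117). At 28 days it had 1612 and 1633 RPKM, and it was higher than at 7 days (log2 change 1.29; limma adjusted p = 0.00264). Of the 16 genes, 2 rose at 7 days and 0 at 28 days when control replicate 1 was left out. When control replicate 2 was left out, 3 rose at 7 days and 1 at 28 days, and without 7 day replicate 2 the 7 day count was 4.

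Of 12 listed kinases, phosphatases and adaptors that act on HSPB1, CRYAB and HSPB6, 2 rose at 7 days and 1 at 28 days, where 13.2% and 2.87% of all tested genes were called higher. Ywhaz, a 14-3-3 adaptor, rose by 0.59 at 7 days, and Mapkapk2, the kinase that phosphorylates HSPB1, by 0.38 at 7 days and 0.48 at 28 days (limma adjusted p = 0.0189, 0.0381 and 0.0409). The 7 day calls ended when any 1 of the 4 libraries compared was left out, the 28 day call when any 1 of the 6 was, and all 3 after quantile normalization. Those of Mapkapk2 also ended with a replicate block (limma adjusted p = 0.0619 at 7 days and 0.0695 at 28 days). Of 4 other genes listed beside the 7, Cryaa and Odf1 were at 0 in all 6 libraries and Hspb9 at 0 in all but 7 day replicate 1, with 0.344 RPKM. Hspb11, counted here by its symbol alone, lay between 5.03 and 8.05 RPKM and did not pass in any comparison.

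**Figure D4:**
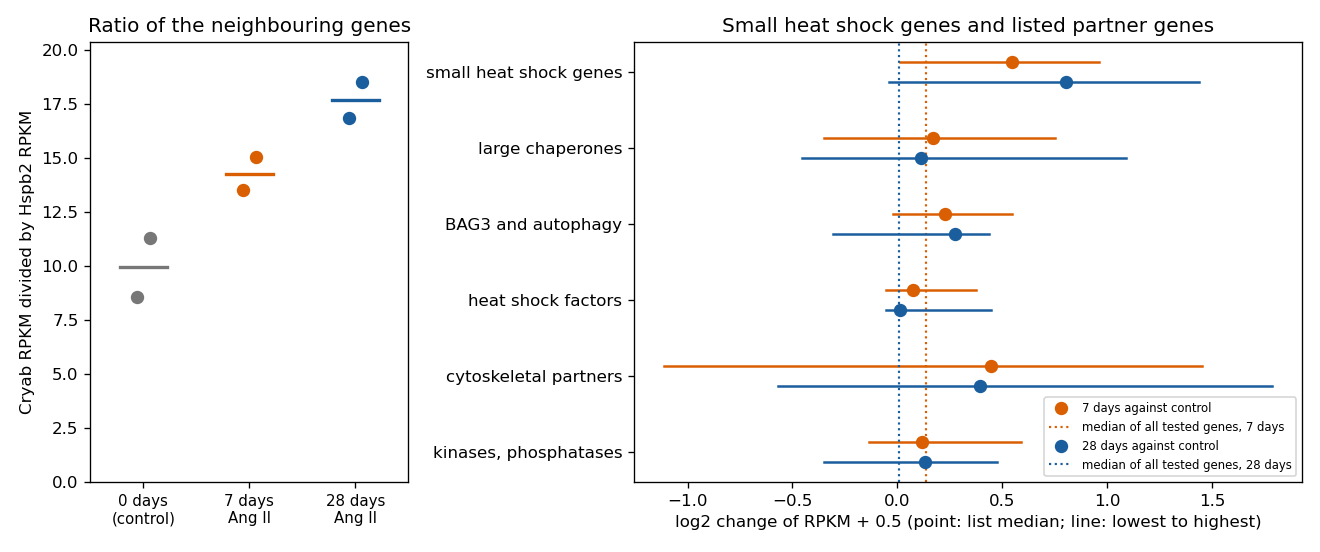
Left, ratio of Cryab to Hspb2 RPKM in each library at 0, 7 and 28 days, with lines at the group means; right, log2 changes of the small heat shock genes and of 5 lists of partner genes against control at 7 and 28 days, with a point at the median, a line from the lowest to the highest member and dotted lines at the median of all tested genes. The ratio goes up to 18.5 without overlap between groups, and the medians of the small heat shock genes, 0.55 and 0.80, lie to the right of those of the 5 lists.

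The genes most alike in pattern over the 6 libraries were found by the Pearson correlation of log2(RPKM + 0.5), with the 3 closest tested genes outside the 7 kept for each small heat shock gene. Over so few libraries, in 3 groups, many genes reach high values, and the coefficients are a description. Outside the 7, Hspb1 was closest to Actn2, the Z-disc alpha-actinin gene (r = 0.994), to Akt1 (0.993) and to Atp1b1 (0.992). Hspb7 was closest to Dyrk1a (0.997), Akt1 (0.997) and Pcbp4 (0.994), so Akt1 was listed for both. Hspb6 was closest to Wtip (0.998), to Ankrd1, the gene of a load-responsive muscle ankyrin repeat protein (0.996), and to Pcolce2 (0.993). Ankrd1 had 1466 and 1472 RPKM at 7 days and 1790 and 1717 RPKM at 28 days, against 617 and 628 RPKM in the controls.

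Cryab was closest to Rpl29 (0.998), Tmem53 (0.995) and Cpxm2 (0.994), and Hspb8 to Atpaf2 (0.999), Ppa1 (0.995) and Pacsin2 (0.994). Hspb3 was closest to Cacnb1 (0.995), Hand2 (0.991) and Lrrc1 (0.989). Hspb2, whose libraries differ more within groups than between them, was closest to Qdpr (0.990), Ubl5 (0.986) and Nhsl1 (0.971). Among the 7 genes themselves, the coefficient was highest between Hspb1 and Hspb7, at 0.997. That lay above those of Hspb1 with any gene outside the 7, but Dyrk1a and Akt1 reached the same rounded value with Hspb7. The coefficients of Hspb2 with the others of the 7 lay between -0.21 and -0.04.

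In bulk heart tissue, fewer cells of a type and less RNA per cell cannot be told apart, and the levels of other cell types moved with the groups. The 11 cardiomyocyte markers summed to 48031 and 47119 RPKM at 0 days, 55391 and 45201 RPKM at 7 days, and 55844 and 59596 RPKM at 28 days. Against that sum the 7 small heat shock genes stood at 3.58% and 3.83% at 0 days, 5.17% and 6.31% at 7 days, and 6.09% and 5.73% at 28 days. The sum is not a fixed reference. Of the 11 markers 1 passed upward at 7 days and 3 at 28 days, and 0 downward, where 13.2% and 2.87% of all tested genes were called higher. Myl2 alone had between 11957 and 19214 RPKM. The 8 fibroblast markers summed to between 515 and 526 RPKM at 0 days, 1190.4 and 1281 RPKM at 7 days, and 548 and 603 RPKM at 28 days. The 6 macrophage markers summed to between 184 and 199 RPKM at 0 days, 322 and 341 RPKM at 7 days, and 113 and 162 RPKM at 28 days.

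The 5 smooth muscle markers summed to between 95.9 and 113 RPKM at 0 days, 162 and 219.8 RPKM at 7 days, and 113 and 139 RPKM at 28 days. The 5 endothelial markers summed to between 117 and 120 RPKM at 0 days, 160.2 and 198 RPKM at 7 days, and 126 and 146 RPKM at 28 days. No marker in the table for these cell types was at 0 in all libraries. Macrophage and fibroblast sums were thus highest at 7 days. The small heat shock sum and the cardiomyocyte sum were highest at 28 days. For the cardiomyocyte sum, 7 day replicate 1 (55391 RPKM) lay close to 28 day replicate 1 (55844 RPKM). The 4 atrial markers summed to 320 and 3017 RPKM at 0 days, 2038 and 2227 RPKM at 7 days, and 2415 and 3427 RPKM at 28 days. Most of the 7 day sums was Nppa, with 1932 and 2084 RPKM. Its level was 215 and 1605 RPKM at 0 days and 1648 and 3040 RPKM at 28 days. Myl7 had 52.5 and 646 RPKM at 0 days, 41.2 and 66.2 RPKM at 7 days, and 341 and 182 RPKM at 28 days. Myl4 and Sln were likewise lower in both 7 day libraries and control replicate 1 than in the remaining libraries. Between 28 and 7 days the log2 changes of the 4 markers ran from 0.16 to 2.42, with a median of 2.07, and 0 passed in limma. Myl7, Myl4 and Sln were thus higher in both 28 day libraries than in both 7 day libraries, without passing. The part of these cell types in the changes of Hspb1, Hspb3, Hspb6, Hspb7 and Cryab was not tested.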

How the data were processed

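The deposited table gives RPKM per gene symbol, computed by the authors, per its headers. Tools named in the submitters' processing notes, with no roles, are DESeq2, HTSeq, Bowtie 0.12.9 and TopHat2 2.0.12, and the builds are mm8 and mm9. The annotation is not given in the sources used here. Promoters and exon overlaps came from GRCm38, another build, by gene symbol.

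RPKM were used as deposited. Genes with a mean of at least 1 RPKM (11096) were log2 transformed after adding 0.5, which understates changes of low genes, and fitted over all 6 libraries in limma 3.58.1 with group means and a mean-variance trend (degrees of freedom 3 residual, 4.21 prior). Adjustment was by Benjamini-Hochberg across the tested genes, with 0.05 as threshold. The code was tested on simulated data.

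The members and lists were chosen with earlier results of these data known. Named genes were the 7 members, up to 4 passing genes of each list with the largest change, and the 3 non-members most correlated with each member. The correlation of same-numbered deviations did not pair the libraries. The alternatives are in the closing section. Python 3.11.15 and R 4.3.3 were used.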

Additional observations from a re-analysis of the deposited data

Results flagged for a closer look

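Hspb1 was picked out because its change differed between the infusion times by a test of the difference itself. Its level was 0.544 higher at 28 days than at 7 days on the log2 scale (limma adjusted p = 0.027), with both 28 day libraries above both 7 day libraries. The call was lost in 5 of the 6 fits that left out 1 library (limma adjusted p from 0.0785 to 0.103), with a replicate block (0.0515), with only the 2 groups compared (0.0805) and without a filter (0.0796). Groups of 2 libraries are too small for a test of single libraries that stand apart.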

How the results depend on the processing

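The alternatives were another pseudocount, no filter or a mean of at least 5 RPKM, median ratio scaling, quantile normalization, no variance trend, a replicate block, a fit of only the 2 groups compared, the study's own criterion and each library left out. Of the 7 genes, 4 passed at 7 days, 5 at 28 days and 1 between the times. Without a filter the counts were 2, 1 and 0. With the study's criterion, applied to the limma values, they were 0 at 7 days and 5 at 28 days. Between the times, for which no criterion of the study was at hand, the 28 day cutoffs gave 0. After median ratio scaling 3 passed between the times, and 0 with only the 2 groups compared. Leaving out single libraries gave 3 to 5 at 7 days, 2 to 5 at 28 days and 0 to 1 between the times. A replicate block gave 4, 5 and 0; same-numbered deviations correlated at 0.15, -0.02 and -0.01 between groups, so the numbers were not taken as pairs. The cause of these differences was not tested. Leaving aside the study's criterion, which Hspb1 and Hspb6 missed at 7 days, Hspb1 passed against control at both times under the 15 other alternatives, as did Hspb6 at 7 days. Of 315 values of the 7 genes under alternatives, 283 kept their side of the threshold, 27 lost a call, 5 gained one and 0 of the called changes turned round. The 27 losses could fall only on the 4, 5 and 1 results that passed in the main fit. The 315 values also hold results that did not pass there, such as those of Hspb2, so the 283 overstate how firmly the calls held. Depth is known only relative to 1 library, so counting error could not be given.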
